A study of Mus musculus with 30 samples.

Results

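Lysyl oxidase (Lox), its 4 homologues (Loxl1, Loxl2, Loxl3 and Loxl4), the thrombospondins Thbs1 and Thbs2, tenascin C (Tnc), biglycan (Bgn) and periostin (Postn) were followed by their gene symbols through the RNA-seq counts of mouse kidney and gastrocnemius. They are 10 of the 54838 genes listed for kidney and 10 of the 55487 listed for gastrocnemius, and all 10 had enough reads to be tested in both tissues. Lox, Thbs1, Thbs2, Tnc and Bgn were chosen by their lower counts in the gastrocnemius of treated mice than of mice on western diet alone, and the others are relatives or partners of these genes. For that reason the gastrocnemius values of all 10 genes are given as a description, with no test. Kidney libraries were not used to choose them, although kidney results were already known when the list was written.

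The mice were wild-type C57BL/6J males kept in thermoneutral housing, in 3 groups. The CD group ate chow diet and received water, the WD group ate western diet and received water, and the WD+CHP group ate western diet and received cyclo(His-Pro) (CHP), a cyclic dipeptide, at 20 mg/kg by gavage 3 times a week. Diet and treatment began at Week 7 and tissues were taken at Week 24. No group on chow diet received CHP, so its action without western diet cannot be read here. For every tissue and group 5 libraries were sequenced (30 altogether), each made from the RNA of a separate mouse within its tissue. The study's supplement lists fewer than 30 mice for this experiment, so some mice must have given both tissues. Which kidney and muscle libraries share a mouse is not stated. The library labels name the tissues as kidney and gastrocnemius, but their extraction text speaks of frozen liver, and for gastrocnemius it names a different kit from the one in the study's methods.

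Kidney libraries held 37189192 to 38211422 counts and gastrocnemius libraries 50319024 to 53282969, so that depth differed little within a tissue. Levels are given as CPM, the read count of a gene scaled to a common library size with edgeR's TMM factors. All 6 proximal tubule markers were expressed in kidney and none of the 6 reached the filter on low counts in gastrocnemius, whereas all 6 fast muscle fibre markers were expressed in gastrocnemius and 1 of 6 in kidney. The summed level of 5 hepatocyte markers was 572 CPM in the WD kidney library 5 and 109 in the CD kidney library 1, against 15.6 to 39.7 in the other kidney libraries. In gastrocnemius the same sum was 59.1 in CD library 1, 60.2 in WD library 3 and 13.1 in WD library 2, and at most 4.52 elsewhere. A gene is called changed when its edgeR quasi-likelihood p, adjusted by the Benjamini-Hochberg method over all genes tested in that tissue, was under 0.05.

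Lysyl oxidases are secreted, copper-dependent enzymes that oxidise lysine side chains of collagen and elastin, the first step towards the covalent cross-links that stiffen a fibrous matrix. Thrombospondins, tenascin C and periostin are matricellular proteins: they sit in the matrix and modulate cell adhesion, growth factor activity and fibril assembly more than they bear load. Biglycan is a small leucine-rich proteoglycan that binds collagen fibrils. In muscle, such genes are expressed by fibroblasts and tendon cells, and in kidney by interstitial and vascular cells, with TGF-beta as a well known inducer of several of them.

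In bulk tissue, fewer cells that express a gene and less RNA per cell cannot be told apart. To compare genes, CPM were divided by the exon length in kilobases (CPM per kb), and the tissues were normalised separately. In CD kidney the order was led by Bgn at 25.9 ± 3.93 CPM per kb (SD, n = 5), then Thbs1 at 11.4 ± 1.10 and Loxl1 at 3.53 ± 0.602. Tnc (1.10 ± 0.232), Loxl2 (1.08 ± 0.180) and Lox (1.01 ± 0.298) lay within one another's SD, as did Loxl4 (0.593 ± 0.0705) and Thbs2 (0.579 ± 0.0764). Loxl3 (0.382 ± 0.0478) and Postn (0.182 ± 0.0453) were lowest. In CD gastrocnemius Bgn (10.0 ± 1.36), Thbs1 (6.87 ± 1.76) and Loxl1 (3.26 ± 0.612) led again. Thbs2 followed at 2.89 ± 0.567 and Lox at 2.35 ± 0.536, both within the SD of their neighbour above. Tnc (1.56 ± 0.468) and Loxl2 (1.41 ± 0.278) came next, then Loxl3 (0.938 ± 0.146), Postn (0.892 ± 0.147) and Loxl4 (0.590 ± 0.115). Loxl1 was therefore the most abundant lysyl oxidase per kb in both tissues, and the rank of Thbs2 was 4 in muscle but 8 in kidney.

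**Figure D1:**
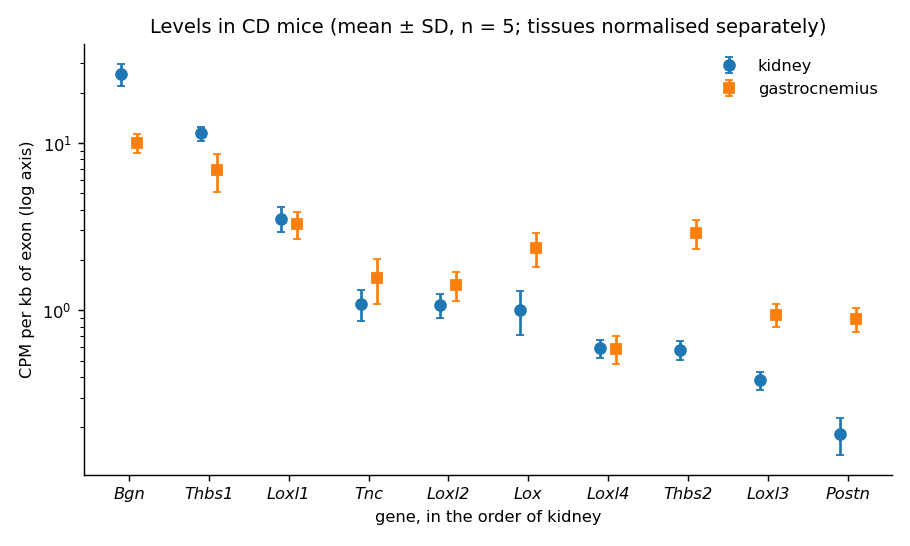
Mean level of each gene in CD mice in CPM per kb of exon on a log axis, for kidney (circles) and gastrocnemius (squares), with SD bars over 5 libraries. Bgn, Thbs1 and Loxl1 lead in both tissues, and Thbs2 is 0.579 CPM per kb in kidney and 2.89 in gastrocnemius.

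The first question was what western diet does to these genes in kidney. WD vs. CD, 5 of the 10 genes rose (Thbs2, Loxl3, Loxl1, Bgn and Loxl2) and 1 fell (Thbs1), while Lox, Loxl4, Tnc and Postn were not called. Of the 17120 genes tested in kidney, 4.62% were called higher and 5.03% lower. The median log2 fold change of the 10 genes was 0.40, beside 0.0015 over all genes tested. The thrombospondin pair moved in opposite directions.

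Thbs2 (chr17:14665500-14694235, minus strand; all coordinates are GRCm38 with GENCODE M21 genes) encodes a trimeric matrix protein known to restrain angiogenesis and to affect collagen fibril shape. It measured 3.85, 4.38, 3.56, 4.82 and 3.66 CPM in CD kidneys, 6.81, 6.20, 5.61, 6.20 and 7.34 in WD kidneys and 5.85, 4.76, 5.34, 6.02 and 5.55 in WD+CHP kidneys. Every WD library lay above every CD library, and the WD+CHP libraries lay between, overlapping both. The log2 fold change was 0.66 ± 0.10 (SE) for WD vs. CD (edgeR adjusted p = 0.000673), or 1.59-fold. Without WD library 5, the one with the high hepatocyte markers, it was 0.62, and it was called in all 10 fits that left out 1 library.

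Thbs1 (chr2:118111876-118127133, plus strand) encodes the related trimer best known for activating latent TGF-beta. Its levels were 62.7, 68.1, 63.5, 74.0 and 78.2 CPM in CD kidneys, 46.0, 52.3, 50.3, 52.2 and 61.7 in WD kidneys and 55.5, 54.8, 48.0, 57.1 and 55.6 in WD+CHP kidneys. All WD and all WD+CHP libraries were below the lowest CD library. WD vs. CD, Thbs1 fell by 0.40 ± 0.08 on the log2 scale (edgeR adjusted p = 0.00365). WD+CHP vs. WD it differed by 0.05 ± 0.08 (95% interval -0.12 to 0.21, adjusted p = 0.871), and by 0.12 without WD library 5 (adjusted p = 0.630).

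Bgn (chrX:73483602-73495933, plus strand) measured 153, 151, 138, 199 and 147 CPM in CD kidneys, 238, 235, 202, 207 and 192 in WD kidneys and 186, 199, 181, 192 and 144 in WD+CHP kidneys. One CD library, library 4, reached the WD range, and the other CD libraries lay below all WD libraries. Bgn rose by 0.45 ± 0.10 on the log2 scale WD vs. CD (edgeR adjusted p = 0.00943), and by 0.55 without CD library 4.

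Among the lysyl oxidases, 3 of the 5 genes rose in WD kidney. Loxl1 (chr9:58287738-58313186, minus strand), a homologue tied to elastic fibre upkeep, measured 10.6, 12.2, 9.67, 14.8 and 10.8 CPM in CD, 19.9, 15.5, 14.9, 18.3 and 13.0 in WD and 13.0, 16.1, 13.6, 15.03 and 10.3 in WD+CHP. The highest CD library lay inside the WD range, and the log2 fold change WD vs. CD was 0.49 ± 0.13 (edgeR adjusted p = 0.0277). Loxl3 (chr6:83034173-83052562, plus strand), a less abundant homologue, measured 1.68, 1.45, 1.73, 1.99 and 1.96 CPM in CD, 2.77, 3.23, 2.30, 2.64 and 2.22 in WD and 1.54, 2.05, 2.11, 2.30 and 1.43 in WD+CHP. Every WD library was above every CD library, at 85 to 122 counts against 56 to 77, and the log2 fold change was 0.58 ± 0.15 (edgeR adjusted p = 0.0208). Loxl2 (chr14:69609068-69695834, plus strand), known for cross-linking basement membrane collagen, measured 5.45, 6.07, 5.02, 7.43 and 5.22 CPM in CD, 8.68, 7.55, 6.66, 7.41 and 7.16 in WD and 6.95, 7.28, 6.34, 7.76 and 6.14 in WD+CHP. CD library 4 again lay in the WD range, and the log2 fold change was 0.36 ± 0.10 (edgeR adjusted p = 0.0370).

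These 3 calls were less firm than those of Thbs2, Thbs1 and Bgn, which held in all 10 fits that left out 1 library. Loxl1 was called in 5 of 10 such fits, and lost its call without CD library 1, 3 or 5 or WD library 1 or 4, with adjusted p up to 0.0754. Loxl2 was called in 3 of 10, and lost its call without CD library 1, 2, 3 or 5 or WD library 1, 2 or 4, with adjusted p up to 0.0971. Loxl3 was called in 8 of 10, and lost its call without CD library 2 or WD library 2, with adjusted p up to 0.0551. Without the hepatocyte-marker libraries, 4 of the 10 genes were called with CD library 1 left out (Thbs2, Thbs1, Bgn and Loxl3) and 6 with WD library 5 left out. The log2 fold changes of Loxl1, Loxl2 and Loxl3 stayed between 0.41 and 0.60, between 0.30 and 0.47 and between 0.50 and 0.64 with 1 library left out. The Loxl2 call was also lost with total counts in place of TMM (adjusted p = 0.0502) and in a fit of only the groups compared (adjusted p = 0.0566). With the adipocyte marker score as a covariate Loxl1 (0.47, adjusted p = 0.0604), Loxl2 (0.37, adjusted p = 0.0580) and Loxl3 (0.54, adjusted p = 0.0537) all lost their calls at log2 fold changes close to those without the covariate, while Thbs2, Thbs1 and Bgn kept theirs. Most of the markers in that score had very low levels in kidney.

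Lox itself, the founding member (chr18:52516067-52529867, minus strand), was not higher in WD kidney. It measured 3.88, 4.36, 3.35, 5.55 and 6.89 CPM in CD, 3.56, 3.68, 3.06, 4.33 and 4.32 in WD and 3.68, 4.71, 2.504, 3.33 and 3.55 in WD+CHP, with overlapping groups. The log2 fold change WD vs. CD was -0.34 ± 0.18 (95% interval -0.74 to 0.06, edgeR adjusted p = 0.263). Without CD library 5, its highest, it was -0.17 (adjusted p = 0.588). Loxl4 (chr19:42593982-42612813, minus strand) ranged from 2.17 to 2.98 CPM in CD, 1.44 to 3.28 in WD and 1.84 to 2.58 in WD+CHP, with a log2 fold change of -0.16 ± 0.18. Tnc (chr4:63959785-64047015, minus strand), a hexameric glycoprotein of tendon and of injured tissue, ranged from 6.80 to 11.04 CPM in CD and 7.04 to 13.5 in WD (0.21 ± 0.17). Postn (chr3:54361109-54391037, plus strand), which assists the activation of lysyl oxidase, ranged from 1.196 to 2.19 CPM in CD and 1.58 to 3.22 in WD. Its log2 fold change of 0.57 ± 0.25 was close to that of Loxl3, with a wider spread (unadjusted p = 0.0371, edgeR adjusted p = 0.167). With 1 library left out, Loxl4 ranged from -0.33 (without WD library 5) to -0.04 (without WD library 3) and Tnc from 0.08 (without WD library 5) to 0.33 (without CD library 5), and neither was called.

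**Figure D2:**
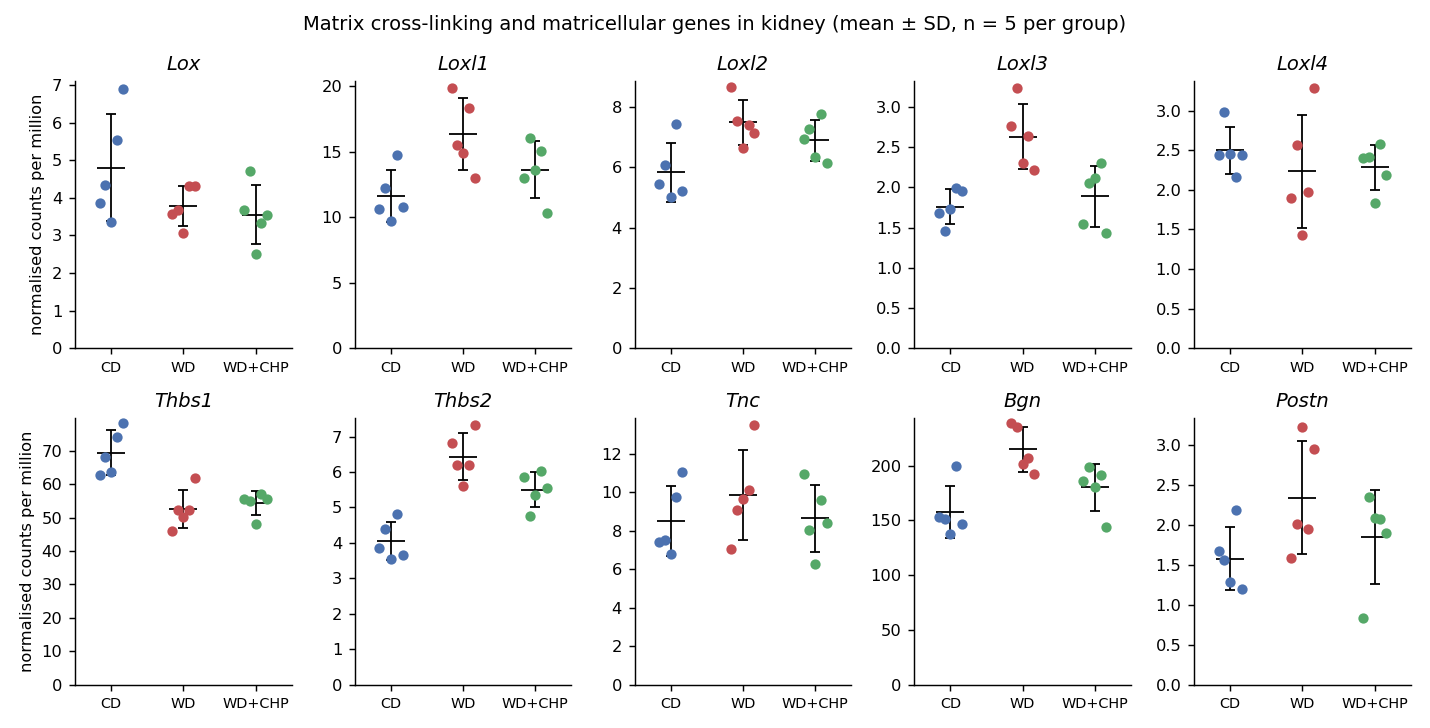
Kidney levels of the 10 genes in normalised CPM, 1 point per library, with the mean and SD of 5 libraries in each group. Thbs2 and Loxl3 separate WD from CD upwards, and Thbs1 lies lower in both western diet groups than in CD.

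Markers of several cell types were summed in the same kidney libraries. The summed CPM of 5 smooth muscle and pericyte markers was 118 to 155 in CD, 144 to 182 in WD and 129 to 160 in WD+CHP, and all 5 had positive log2 fold changes WD vs. CD with 1 of them called. The sum of 5 fibroblast markers was 29.2 to 40.4 in CD, 36.4 to 39.0 in WD and 29.6 to 37.9 in WD+CHP, with 4 of 5 positive and none called. The sum of 6 proximal tubule markers was 30266 to 33815 in CD, 26577 to 30145 in WD and 29583 to 34534 in WD+CHP, so that the WD and CD libraries did not overlap. Kap alone, at a mean of 20569 CPM in CD and 16957 in WD, made up most of this sum. Of the 6 log2 fold changes WD vs. CD, 3 were positive and 3 negative, with a median of -0.004. Kap (-0.28, edgeR adjusted p = 0.0359) and Cubn (-0.32, adjusted p = 0.00752) were called lower and Slc5a2 (0.40, adjusted p = 0.00465) higher. The sum of 7 adipocyte markers was 25.3 to 50.02 in CD, 27.5 to 33.6 in WD and 28.9 to 37.3 in WD+CHP. Fabp4 made up most of it, at a mean of 30.4 CPM in CD and 27.5 in WD. Adipoq, Lep, Plin1, Cidec, Retn and Cfd averaged only 0.0680 to 0.538 CPM in WD. Endothelial, macrophage, Schwann cell and tendon cell marker sums overlapped between CD and WD, with no marker called. All 5 of the adipocyte markers that passed the filter on low counts had negative log2 fold changes WD vs. CD, and Cfd was called (-2.47, edgeR adjusted p = 0.0311). The part of these cell types in the rise of Thbs2, Bgn and the lysyl oxidases and in the fall of Thbs1 was not tested.

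The second question was whether CHP alters these genes in the kidney of mice on western diet. By edgeR, 0 of the 10 genes were called WD+CHP vs. WD, and limma-voom also called 0. DESeq2 called 0 of the 7 to which it gave an adjusted p, and left Loxl3, Loxl4 and Postn without one. Over all kidney genes, 0.0993% were called higher and 0.00584% lower. At an unadjusted p under 0.05, 3 of 10 genes were lower and none higher, beside 5.13% of all genes lower and 6.31% higher at that level. These were Loxl3 (-0.48 ± 0.15, unadjusted p = 0.00474, adjusted p = 0.206), Bgn (-0.25 ± 0.10, unadjusted p = 0.0202, adjusted p = 0.330) and Thbs2 (-0.22 ± 0.10, unadjusted p = 0.0315, adjusted p = 0.380). The 95% intervals were -0.80 to -0.16 for Loxl3, -0.47 to -0.04 for Bgn and -0.43 to -0.02 for Thbs2. Over the 10 genes, 8 had a negative log2 fold change and the median was -0.21, beside -0.0058 over all genes. Both kidney comparisons use the same 5 WD libraries, so their values are not independent of each other. Without WD library 5, the one with the high hepatocyte markers, 0 of the 10 were called WD+CHP vs. WD, and the values of Tnc (-0.19 to -0.05), Lox (-0.09 to -0.04) and Loxl4 (0.03 to 0.22) moved most in proportion, besides Thbs1. Loxl2 (-0.12) was -0.06 without WD library 1, and Postn (-0.34) was -0.15 without WD+CHP library 1.

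**Figure D3:**
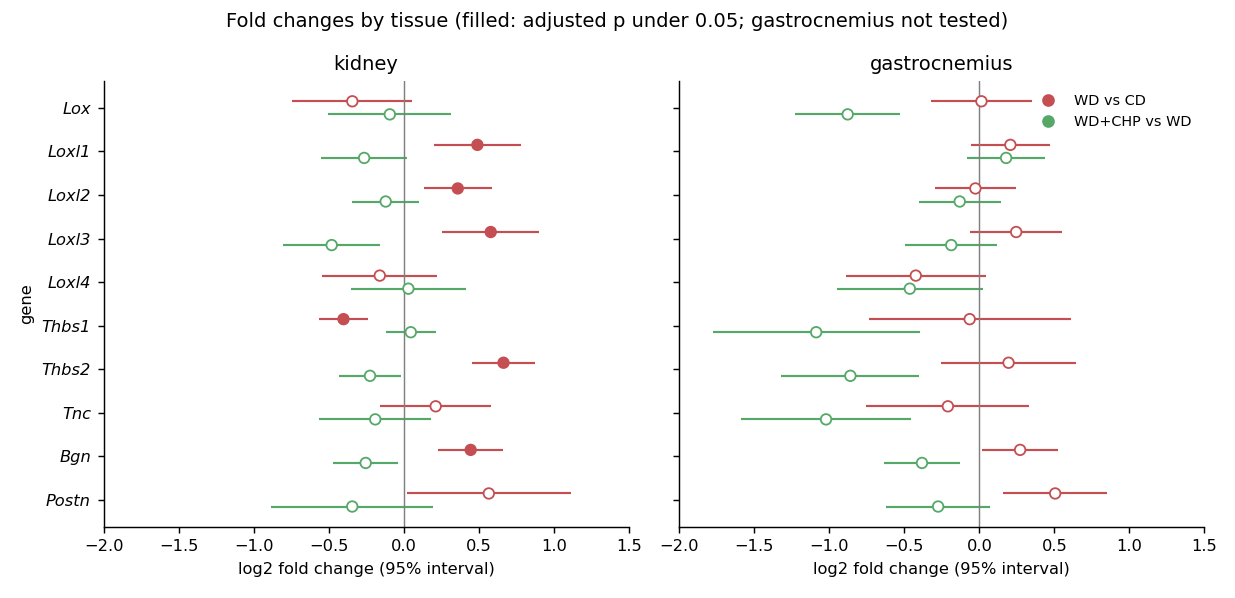
Log2 fold changes of the 10 genes with 95% intervals for WD vs. CD (red) and WD+CHP vs. WD (green) in kidney (left) and gastrocnemius (right). Filled points passed an adjusted p of 0.05, which only kidney values could do, since gastrocnemius values were not tested. The gastrocnemius intervals describe spread and are not a test, because WD+CHP vs. WD values there chose Lox, Thbs1, Thbs2, Tnc and Bgn. Thbs2 is 0.66 and Thbs1 -0.40 in kidney WD vs. CD.

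The 250 bases upstream of the transcription start are shown for Thbs2 and Bgn, which rose in WD kidney and have a promoter window in the RefSeq table used (GRCm38.p6). That table held 5 of the 10 genes (Postn, Tnc, Thbs2, Loxl4 and Bgn) and did not list Lox, Loxl1, Loxl2, Loxl3 and Thbs1. Both sequences run 5′ to 3′ on the strand of the gene. Capitals mark matches to any of 4 motifs searched on both strands, AP-1 (TGANTCA), TEAD (GGAATG), SMAD (CAGACA) and the TATA box (TATAAA).
Thbs2, chr17:14694263-14694512, minus strand: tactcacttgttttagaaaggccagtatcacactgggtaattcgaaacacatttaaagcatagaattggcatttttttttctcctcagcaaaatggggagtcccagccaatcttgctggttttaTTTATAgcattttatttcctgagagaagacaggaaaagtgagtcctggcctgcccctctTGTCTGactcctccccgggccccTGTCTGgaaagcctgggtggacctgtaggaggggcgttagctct
Bgn, chrX:73483351-73483600, plus strand: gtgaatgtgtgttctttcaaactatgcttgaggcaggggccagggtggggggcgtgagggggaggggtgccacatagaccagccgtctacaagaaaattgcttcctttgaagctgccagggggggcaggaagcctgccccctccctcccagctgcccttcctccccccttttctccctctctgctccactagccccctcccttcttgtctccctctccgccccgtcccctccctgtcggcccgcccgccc
The Thbs2 window held 2 SMAD matches, both on the opposite strand, and 1 TATA box match, also on the opposite strand. Of 32851 promoter windows of this length in the table, 17.13% held a SMAD match and 12.37% a TATA box match. The Bgn window held none of the 4 motifs, and had a GC content of 64.4% beside 46.8% for Thbs2 and a median of 52.4% over all windows. AP-1 and TEAD matches, found in 6.75% and 12.64% of all windows, were in neither sequence. These matches describe letters and not bound sites.

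In gastrocnemius, the genes Lox, Thbs1, Thbs2 and Tnc were lowest in WD+CHP mice. These values chose Lox, Thbs1, Thbs2, Tnc and Bgn and are given without a test. Lox measured 10.4, 11.5, 15.5, 9.95 and 8.80 CPM in CD, 13.6, 12.1, 14.02, 7.97 and 9.00 in WD and 5.95, 5.83, 6.72, 6.16 and 6.22 in WD+CHP. All WD+CHP libraries lay below all WD and all CD libraries, and their SD of 0.341 CPM was narrower than the 2.73 of WD. The log2 fold change was -0.88 ± 0.16 WD+CHP vs. WD, and 0.01 ± 0.16 between WD and CD, so that Lox in treated mice was below the level of both untreated groups.

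Tnc measured 12.2, 13.3, 17.2, 10.4 and 7.39 CPM in CD, 13.4, 10.5, 16.1, 5.54 and 6.87 in WD and 4.46, 4.98, 6.16, 4.61 and 5.57 in WD+CHP. The WD+CHP libraries lay below all CD libraries and overlapped the lowest WD library, with a log2 fold change of -1.02 ± 0.26 WD+CHP vs. WD, and -0.21 ± 0.25 for western diet against chow. Thbs1 measured 37.0, 38.9, 60.2, 32.7 and 39.7 CPM in CD, 50.8, 32.0, 75.4, 17.8 and 23.3 in WD and 21.5, 13.1, 25.2, 14.2 and 19.8 in WD+CHP. The WD group spread from 17.8 to 75.4 CPM, and the WD+CHP libraries again lay below all CD libraries. Its log2 fold change was -1.09 ± 0.32 WD+CHP vs. WD and -0.06 ± 0.31 between WD and CD.

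Thbs2 measured 18.4, 23.7, 24.7, 19.3 and 15.1 CPM in CD, 26.6, 23.5, 35.9, 13.7 and 16.1 in WD and 10.4, 12.7, 14.9, 11.8 and 14.1 in WD+CHP. The highest WD+CHP library was just under the lowest CD library, and 2 WD+CHP libraries were above the lowest WD library (-0.86 ± 0.21 WD+CHP vs. WD, 0.19 ± 0.21 for western diet against chow). Bgn measured 69.3, 67.9, 60.9, 58.8 and 48.7 CPM in CD, 78.0, 79.2, 91.4, 57.7 and 62.9 in WD and 52.9, 60.1, 63.7, 51.8 and 54.6 in WD+CHP. Its WD+CHP libraries overlapped both other groups, with log2 fold changes of -0.38 ± 0.12 WD+CHP vs. WD, and 0.27 ± 0.12 between WD and CD.

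The genes that were listed as relatives differed among themselves in gastrocnemius. Loxl1 ranged from 8.47 to 13.1 CPM in CD, 10.5 to 13.9 in WD and 11.4 to 15.4 in WD+CHP, and was the 1 gene of 10 with a positive log2 fold change WD+CHP vs. WD (0.18 ± 0.12). Loxl4 ranged from 1.86 to 3.04 CPM in CD, 1.19 to 2.49 in WD and 0.883 to 1.70 in WD+CHP (-0.46 ± 0.22 WD+CHP vs. WD, -0.42 ± 0.21 between WD and CD), with every WD+CHP library below every CD library. Loxl2 (-0.13 ± 0.13) and Loxl3 (-0.19 ± 0.14) overlapped in all 3 groups. Loxl2 was -0.08 without WD+CHP library 4, and Loxl3 ranged from -0.28 without WD library 5 to -0.08 without WD library 2, a library with high hepatocyte markers. Postn was 8.51, 9.16, 7.95, 5.80 and 7.39 CPM in CD, 11.04, 13.8, 13.1, 8.03 and 9.13 in WD and 6.88, 11.7, 9.04, 9.40 and 8.59 in WD+CHP. Its log2 fold change was 0.51 ± 0.16 WD vs. CD and -0.27 ± 0.16 WD+CHP vs. WD, the latter being -0.18 without WD library 2. With the adipocyte marker score as a covariate, the value for western diet was 0.02 for Postn, 0.06 for Loxl1 and -0.71 for Loxl4.

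Counted by overlap, 1 of 10 genes (Lox) had all WD+CHP libraries below all WD libraries, beside 1.65% of the 15419 genes tested in gastrocnemius, and 5 of 10 (Lox, Loxl4, Thbs1, Thbs2 and Tnc) had all WD+CHP libraries below all CD libraries, beside 4.2%. WD and CD libraries overlapped for all 10 genes, where 7.84% of all genes had no overlap in either direction. The first of these counts uses the values that chose the genes, and the second shares its WD+CHP libraries.

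**Figure D4:**
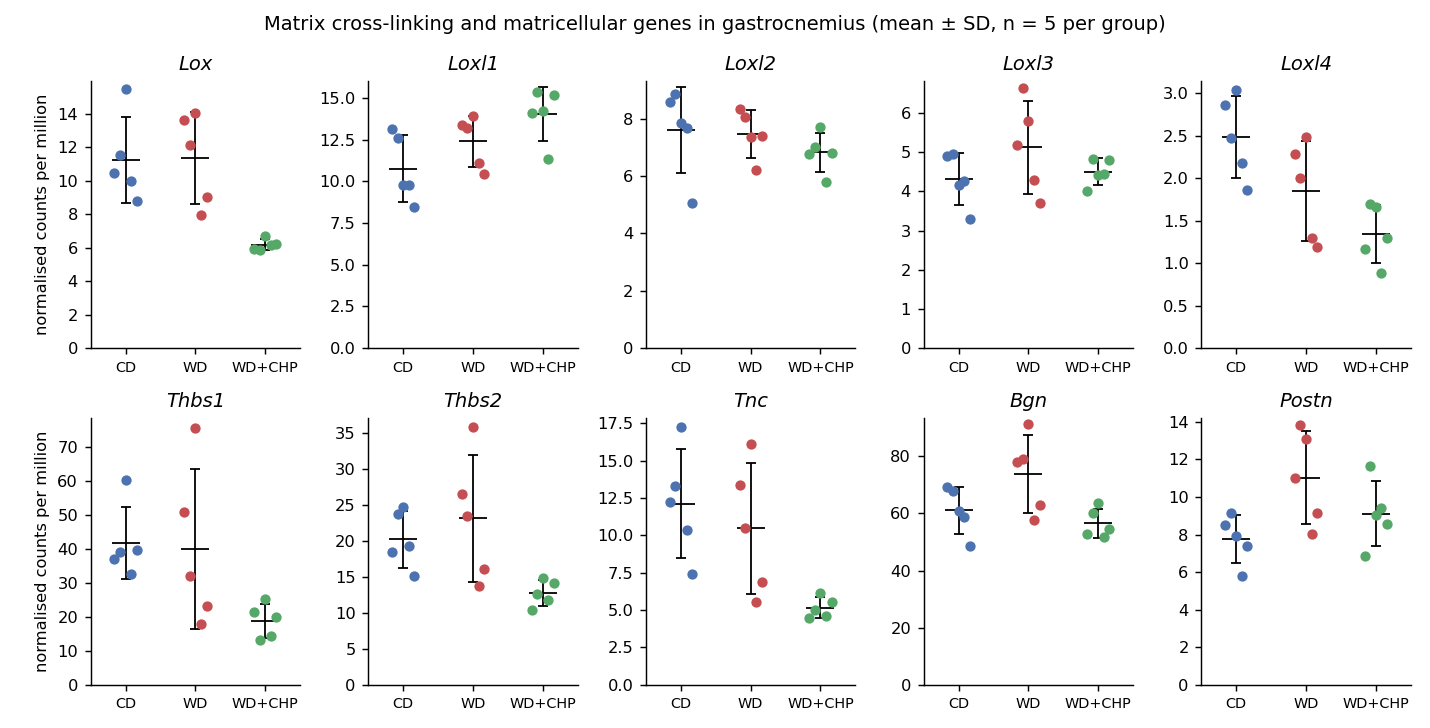
Gastrocnemius levels of the 10 genes in normalised CPM, 1 point per library in the order of replicates 1 to 5, with the mean and SD of 5 libraries in each group. Lox in WD+CHP lies between 5.83 and 6.72 CPM, below all other libraries, and the last 2 points of WD are low for most genes.

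The WD group of gastrocnemius was split in the same way for most of these genes. Libraries 4 and 5 were the 2 lowest of the 5 WD libraries for 9 of the 10 genes, Loxl2 being the exception. Leaving out WD library 3, the highest for Lox, Thbs1, Thbs2 and Tnc, moved the WD+CHP vs. WD log2 fold change to -0.79 for Lox, -0.72 for Thbs1, -0.65 for Thbs2 and -0.81 for Tnc. Leaving out WD library 4 moved them to -0.98, -1.27, -0.9996 and -1.18. WD library 3 is also a library with high hepatocyte markers. Without it, the values for western diet against chow were -0.43 for Thbs1, -0.42 for Tnc, -0.07 for Lox and -0.02 for Thbs2, so that Lox and Thbs2 changed sign. With 1 library left out, western diet values ranged from -0.07 to 0.16 (without CD library 3) for Lox, from -0.43 to 0.12 (without WD library 4) for Thbs1, from -0.02 to 0.33 (without WD library 4) for Thbs2 and from -0.42 to -0.05 (without CD library 3) for Tnc. Leaving out CD library 1 or WD library 2, the others with these markers, moved the WD vs. CD values of the 10 genes by at most 0.082 and 0.112, and turned those of Lox (-0.011 in both fits), Thbs1 (0.00496 without WD library 2) and Loxl2 (0.020 without CD library 1), all close to 0.

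Markers of tendon cells followed the same libraries. The summed CPM of 7 tendon cell markers (Tnmd, Scx, Mkx, Fmod, Comp, Thbs4 and Kera) was 434, 487, 690, 449 and 323 in CD, 501, 426, 700, 243 and 260 in WD and 204, 226, 296, 209 and 211 in WD+CHP. Fmod and Thbs4, with WD means of 204 and 177 CPM, made up most of it. Fmod is a small leucine-rich proteoglycan like Bgn and Thbs4 is a thrombospondin, so the sum is largely one of related matrix genes. The 5 WD libraries fell in the same order by this sum as by Lox, Thbs1, Thbs2 and Tnc, 4 of the 10 genes. This order was not particular to tendon markers: the WD sums of 5 macrophage markers (78.2, 75.4, 79.8, 53.2 and 58.4 in libraries 1 to 5) and of 4 endothelial markers (235, 217, 249, 195 and 213) fell in it too, and libraries 4 and 5 were also lowest by 5 fibroblast markers (135, 115, 130, 105 and 111). Libraries 4 and 5 were instead highest by 4 Schwann cell markers (46.8, 123, 112, 183 and 170) and by 7 adipocyte markers (199, 167, 182, 203 and 218), and 5 smooth muscle and pericyte markers summed to 420.3 to 464 in a different order. WD+CHP vs. WD, 6 of the 7 markers had a negative log2 fold change and none was called by edgeR, among them Comp (-1.16, adjusted p = 0.153), Fmod (-0.98, adjusted p = 0.132) and Tnmd (-0.91, adjusted p = 0.154), while Scx, a defining tendon transcription factor, was 0.02 (adjusted p = 0.965). With the mean log2 CPM of these markers as a covariate, an alternative chosen after seeing the data, the WD+CHP vs. WD log2 fold change was -0.37 for Lox, -0.05 for Thbs1, -0.11 for Thbs2, -0.09 for Tnc and -0.04 for Bgn. In the same fit the signs of Loxl4 (0.18), Loxl2 (0.10), Loxl3 (0.11) and Postn (0.03) turned, and Loxl1 was 0.39. The score itself was lower on average in WD+CHP than in WD. For the genes lower in WD+CHP, this fit cannot tell less tendon in the piece of muscle from a lower level in the same cells.

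**Figure D5:**
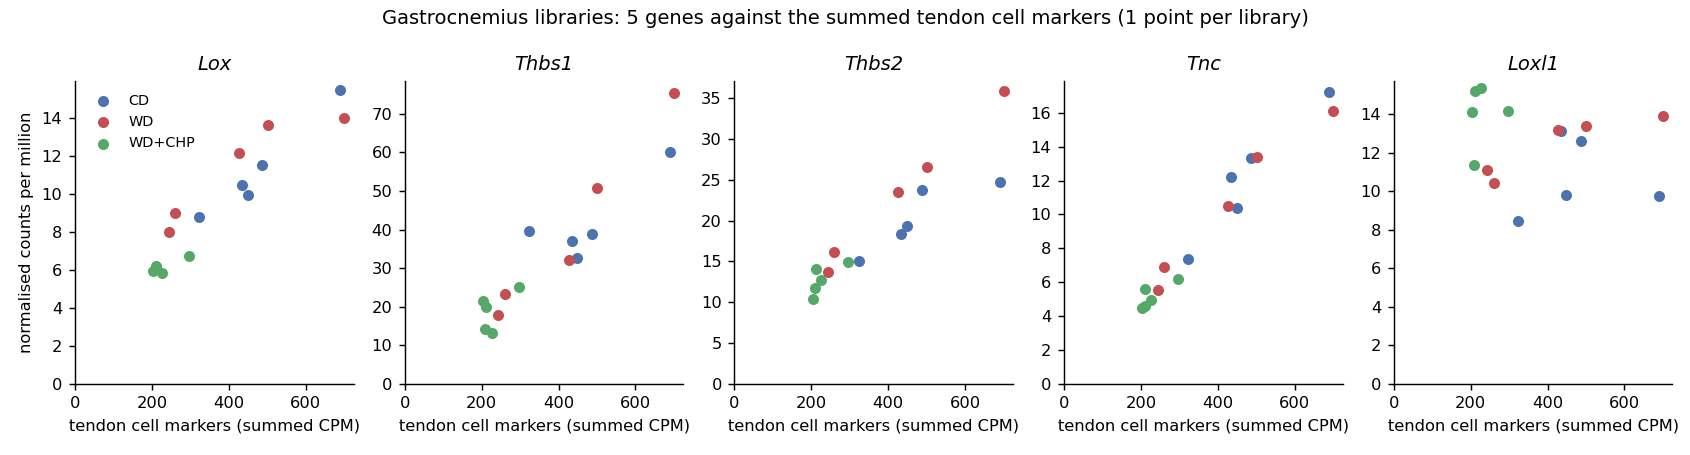
CPM of Lox, Thbs1, Thbs2, Tnc and Loxl1 in each gastrocnemius library (1 point) against the summed CPM of 7 tendon cell markers, coloured by group. The WD libraries at 243 and 260 on the horizontal axis are also low for the first 4 genes, next to the WD+CHP libraries at 204 to 296, whereas Loxl1 in WD+CHP lies at 11.4 to 15.4 CPM.

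Markers of other cell types were summed in the same way in gastrocnemius. The sum of 7 adipocyte markers was 112 to 185 CPM in CD, 167 to 218 in WD and 98.1 to 162 in WD+CHP, and with an adipocyte marker score as a covariate the log2 fold change was -0.85 for Lox, -1.65 for Thbs1, -0.87 for Thbs2 and -0.93 for Tnc WD+CHP vs. WD. In that fit Postn turned to 0.21 WD+CHP vs. WD, and for western diet against chow Thbs1 turned to 0.46. The sum of 5 fibroblast markers was 78.1 to 132 in CD, 105 to 135 in WD and 88.6 to 129 in WD+CHP, and 5 macrophage markers summed to 49.2 to 82.4, 53.2 to 79.8 and 39.3 to 77.7. All 5 macrophage markers had negative log2 fold changes WD+CHP vs. WD (median -0.37) and none was called. The 4 endothelial markers summed to 224 to 265 in CD, 195 to 249 in WD and 204 to 238 in WD+CHP, with a median of -0.03. The 4 Schwann cell markers summed to 56.5 to 147 in CD, 46.8 to 183 in WD and 62.4 to 119 in WD+CHP, and none was called. The part of these cell types in the gastrocnemius values of the 10 genes was not tested. All of these sums but the adipocyte one overlapped between the 3 groups, and the adipocyte sums of WD and WD+CHP did not overlap.

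Further genes of matrix maturation, matricellular function and matrix reception were taken as 6 lists. In kidney, WD vs. CD, 8 of 75 tested list genes rose and 2 fell, where 4.62% of all genes were called higher and 5.03% lower. Among genes of collagen maturation, P3h2 (0.34 ± 0.06, edgeR adjusted p = 0.00409) and P4ha2 (0.32 ± 0.07, adjusted p = 0.0115), both prolyl hydroxylases, rose of 17 tested. Of 12 small leucine-rich proteoglycans besides Bgn, Tsku rose (0.73 ± 0.14, adjusted p = 0.00453). Of 10 other matricellular genes, Smoc1 (1.17 ± 0.32, adjusted p = 0.0311) and Sparc, a collagen-binding protein (0.25 ± 0.07, adjusted p = 0.0315), rose.

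Elastic fibre genes, the substrates and scaffold of lysyl oxidases together with collagen, had 2 of 16 called in kidney. Elastin (Eln) rose from 6.24 ± 0.405 to 8.86 ± 1.46 CPM (0.50 ± 0.11, edgeR adjusted p = 0.00785) and Mfap4, a microfibril-associated protein, from 0.761 ± 0.139 to 1.64 ± 0.479 CPM (1.10 ± 0.19, adjusted p = 0.00230). The list median was 0.19 WD vs. CD, with 15 of 16 genes positive, and -0.20 WD+CHP vs. WD, with 15 of 16 negative and none called. The 2 comparisons share the WD libraries. Among 15 receptors, Lrp1, an endocytic receptor for thrombospondins, rose (0.39 ± 0.11, adjusted p = 0.0370), while Sdc4 (-0.21 ± 0.05, adjusted p = 0.0171) and the integrin subunit Itgav (-0.14 ± 0.04, adjusted p = 0.0390) fell. The calls of P3h2, P4ha2, Tsku, Eln and Mfap4 held in all 10 fits that left out 1 library, that of Sdc4 in 9 (lost without CD library 1), and those of Sparc, Smoc1, Lrp1 and Itgav in 5, 4, 3 and 2. The adipocyte marker score ended the calls of these last 4, with log2 fold changes of 0.25 for Sparc (adjusted p = 0.0655), 0.98 for Smoc1 (adjusted p = 0.0767), 0.42 for Lrp1 (adjusted p = 0.0545) and -0.14 for Itgav (adjusted p = 0.0856), near those without it. Smoc1 was also lost by limma-voom (adjusted p = 0.0541), and Lrp1 with total counts in place of TMM (adjusted p = 0.0504) and in a fit of only the groups compared (adjusted p = 0.0666). Itgav was lost in that fit (adjusted p = 0.0642) and with no filter (adjusted p = 0.0908). None of 5 other thrombospondins and tenascins was called (2 at an unadjusted p under 0.05, 1 in each direction, where 12.4% of all genes were higher and 12.5% lower at that level). WD+CHP vs. WD, edgeR called 0 of the 75 genes in kidney, with 8 lower and 2 higher at an unadjusted p under 0.05 (5.13% and 6.31% of all genes), while DESeq2 called 1 receptor higher and limma-voom none.

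In gastrocnemius, 8 of 76 list genes rose WD vs. CD and 1 fell, where 4.67% of all genes were called higher and 3.96% lower. Ccn5 rose most on the log2 scale, from 1.06 ± 0.152 to 2.80 ± 0.518 CPM (1.41 ± 0.17, edgeR adjusted p = 0.000145), followed by Tsku (1.00 ± 0.21, adjusted p = 0.00757) and Cd36, a thrombospondin receptor and fatty acid carrier (0.64 ± 0.10, adjusted p = 0.000751). Smoc1 (0.58 ± 0.16, adjusted p = 0.0287), Fkbp10 (0.44 ± 0.13, adjusted p = 0.0468), Sdc4 (0.44 ± 0.12, adjusted p = 0.0280), Eln (0.42 ± 0.10, adjusted p = 0.0129) and Aspn (0.38 ± 0.11, adjusted p = 0.0401) also rose, and Smoc2 fell (-0.28 ± 0.07, adjusted p = 0.0268). In all 10 fits that left out 1 library Ccn5, Tsku, Cd36 and Eln stayed called, while Smoc1 and Smoc2 did so in 5, Sdc4 in 4, Aspn in 3 and Fkbp10 in 2. Aspn was also lost by limma-voom, with no filter, in a fit of only the groups compared and with the length and GC trend removed, with adjusted p up to 0.0952. Fkbp10 was lost with no filter (adjusted p = 0.0665) and in a fit of only the groups compared (adjusted p = 0.0891), and Smoc2 with total counts in place of TMM (adjusted p = 0.0790) and in that fit (adjusted p = 0.0675). With the adipocyte marker score as a covariate all 9 calls were lost, with Smoc1 at 0.22, Fkbp10 at 0.19, Sdc4 at 0.74, Ccn5 at 1.15 (adjusted p = 0.311), Tsku at 0.80 (adjusted p = 0.537), Cd36 at 0.45 (adjusted p = 0.452) and Eln at 0.38 (adjusted p = 0.541). Aspn was 0.48 and Smoc2 -0.34 in that fit, both further from 0 than without the score. The adipocyte markers Lep (3.96, edgeR adjusted p = 5.4e-05), Cidec (1.38, adjusted p = 0.000234), Adipoq (1.00, adjusted p = 0.00153) and Plin1 (0.93, adjusted p = 0.0012) were themselves called higher WD vs. CD and Cfd was called lower (-1.59, adjusted p = 0.000546), 5 of the 7 markers in all. The smooth muscle marker Acta2 was also called higher (0.59, edgeR adjusted p = 0.00315). Two-sided edgeR tests called the fast muscle fibre markers Acta1 (-0.22, adjusted p = 0.0288) and Ckm (-0.26, adjusted p = 0.0257) lower. The part of these markers' cell types in the rise of the list genes was not tested. Eln, Tsku and Smoc1 were called higher under western diet in both tissues, and Sdc4 was called lower in kidney and higher in gastrocnemius. The difference between tissues was not tested.

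WD+CHP vs. WD in gastrocnemius, 1 of the 76 list genes was called, beside 0.0649% of all genes higher and 0.344% lower. This was Prelp, a proteoglycan that anchors basement membranes to connective tissue, which fell from 64.5 ± 16.0 to 39.6 ± 2.98 CPM (-0.70 ± 0.14, edgeR adjusted p = 0.0452). The call held without WD library 4 or 5 and was lost without any other of the 10 libraries compared, with adjusted p up to 0.148. It was also lost by limma-voom (adjusted p = 0.0555), with no filter (adjusted p = 0.0510), in a fit of only the groups compared (adjusted p = 0.0622), with the adipocyte marker score (-0.73, adjusted p = 0.616) and with the tendon marker score (-0.22, adjusted p = 0.372). At an unadjusted p under 0.05, 25 of the 76 genes were lower and none higher, beside 7.15% of all genes lower and 5.36% higher at that level, and 9 of the 25 were among 13 small leucine-rich proteoglycans, whose median was -0.29 beside -0.01 over all genes tested. Fmod, Kera, Comp and Thbs4 belong both to these lists and to the tendon cell markers. The lists hold relatives of genes that were chosen by lower values in this comparison and these libraries. The counts of list genes lower WD+CHP vs. WD are therefore not independent of that choice and only describe the lists.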

How the data were processed

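RNA-seq was done on poly(A)-enriched libraries of kidney and gastrocnemius, 5 mice per group. The tables the authors deposited hold unnormalised integer read counts for every gene in each library. Per the submitters' processing notes, reads were aligned with STAR 2.7.3a and the builds named are GRCm38 and mm10. The counting tool, its annotation and strand setting are not given in the sources used here. Labels placed every column with a library, leaving 0 unmatched.

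Analysis used edgeR 4.0.16 (R 4.3.3). Within a tissue, low genes were removed (filterByExpr, minimum count 10), TMM scaling was applied and the 3 groups entered 1 quasi-likelihood model. Two-sided tests of the western diet (WD vs. CD) and of CHP (WD+CHP vs. WD) were adjusted by the Benjamini-Hochberg method across the genes retained, with 0.05 as threshold. Log2 CPM used a prior count of 2. Each SE is the log2 fold change divided by the root of its F value. Exon lengths and positions are from GENCODE M21 on GRCm38. DESeq2 1.42.0 and limma 3.58.1 (voom), other scalings and filters, a replicate block, marker scores as covariates, a correction for gene length and GC content, and leaving out each library were alternatives. The count fit was tested on simulated data. Figures used matplotlib 3.10.9 (Python 3.11.15).

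The 10 genes, the gene and marker lists and the alternatives were chosen with earlier results of these data known. All 10 genes are named. From each further list and comparison, up to 3 called genes with the smallest adjusted p are named. P-values measure the spread between mice of 1 experiment.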

Additional observations from a re-analysis of the deposited data

Results flagged for a closer look

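Of 60 sets of 5 libraries (10 genes in 3 groups of 2 tissues), 3 held a library whose gap to its nearest neighbour exceeded Dixon's 95% critical value of 0.71 of the group's range. Chance alone gives about 1 in 20 such sets. In kidney, CD library 4 had the highest Bgn, 199 CPM, with the next at 153. Also in kidney, WD+CHP library 3 had the lowest Thbs1, 48.0 CPM, with the next at 54.8. In gastrocnemius, CD library 3 had the highest Thbs1, 60.2 CPM, with the next at 39.7, and it was also the CD library with the highest tendon cell marker sum, 690 CPM.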

How the results depend on the processing

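In kidney WD vs. CD, 6 of the 10 genes were called, and between 4 and 6 in the fits that left out 1 library. With the adipocyte marker score as a covariate 3 were called (Bgn, Thbs1 and Thbs2). Loxl2 lost its call with total counts in place of TMM and in a fit of only the groups compared, leaving 5. WD+CHP vs. WD, 0 of the 10 were called in kidney under every alternative run. In that comparison the sign changed for 2 genes near 0. Lox ranged from -0.21 to 0.013 and Loxl4 from -0.089 to 0.22 with 1 library left out, and Loxl4 was -0.00499 with total counts in place of TMM.

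Over all genes in kidney WD+CHP vs. WD, 18 were called, against 194 by DESeq2, 37 with no filter, 0 in a fit of only the groups compared, 0 with the length and GC trend removed and 49 with the tendon marker score. Leaving out 1 library gave 0 (without WD library 1, 4 or 5 or WD+CHP library 3 or 4) to 97 (without WD library 2), and 7, 45 and 47 without WD+CHP library 2, 1 and 5. In gastrocnemius WD+CHP vs. WD, 63 genes were called, against 249 by DESeq2, 40 with no filter, and 0 with the adipocyte or the tendon marker score. Leaving out 1 library gave 12 (without WD+CHP library 5) to 92, with 18 and 26 without WD library 1 and 2, and 27 and 26 without WD+CHP library 1 and 3. Gastrocnemius WD vs. CD had 1330 calls, and 4 with the adipocyte marker score, which itself differed between these groups. The cause of these differences was not tested.

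With a replicate block, 6 of the 10 genes were called in kidney WD vs. CD and 0 in WD+CHP vs. WD, and 70 genes in all in the latter. The block ended the WD vs. CD calls of Itgav in kidney (edgeR adjusted p = 0.0768) and of Aspn in gastrocnemius (adjusted p = 0.0633). Libraries of the same number correlated between -0.13 and 0.15 in their deviations from the group means, so the numbers were not taken as pairs.

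Genes of low level, such as Loxl3, Loxl4 and Postn in kidney and Loxl4 in gastrocnemius, had counts of 32 to 156 per library. Bgn rests on at least 2536 counts in each library. Whether counting error or the spread between mice limits the precision of these genes was not tested.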
